A study of Oryza sativa with 12 samples.

Results

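The comparison of the rice (Oryza sativa) lines IL50-7 and KMR3 in the panicle after its emergence used 6 of the 12 Affymetrix rice arrays of the series. The arrays were taken by their labels, 3 of IL50-7 panicle and 3 of KMR3 panicle. IL50-7 is an introgression line, meaning that segments of a donor genome have been bred into another parent, and the series title calls it high yielding. KMR3 is the line it was set against, and the labels name neither the donor nor the segments. Each line was represented by field-grown plants under standard management, with no treatment, and total RNA was extracted with Trizol and labelled as biotinylated cRNA. The other 6 arrays hold flag leaf RNA, 3 of IL50-7 and 3 of KMR3, and served here to check organ and line. The labels call the arrays of a group biological replicates without saying whether they came from separate plants, so p-values measure the spread between these samples only.

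The rice panicle is a branched inflorescence that leaves the flag leaf sheath shortly before its spikelets flower. Within each spikelet the MADS-box transcription factors set organ identity, the tapetum lines the anther and feeds the developing pollen before it degenerates, and the green lemma and palea photosynthesise. Yield in rice depends on how many spikelets the panicle meristem lays down and on how well pollen and grain are supplied with sugar and nitrogen.

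Levels are log2 intensities after quantile normalization, in which every array is given the same distribution of values. The deposited medians of the 6 panicle arrays lay between 13.6 and 22.7 intensity units. A background of log2 3.97 was taken from control probe sets for transcripts that were not spiked in. The organ labels were checked with marker genes on values normalized over all 12 arrays. The 9 measured genes of 10 young floral organ markers averaged 10.40 to 10.50 in IL50-7 panicles and 10.22 to 10.50 in KMR3 panicles. The same markers averaged 2.96 to 3.68 in IL50-7 leaves and 3.62 to 4.09 in KMR3 leaves. The 3 measured of 4 meristem markers averaged 8.65 to 8.92 in IL50-7 panicles and 8.46 to 9.07 in KMR3 panicles, against at most 3.51 in any leaf. The 4 measured of 8 leaf mesophyll markers were high everywhere, at 11.09 to 12.41 in IL50-7 panicles, 11.12 to 12.44 in KMR3 panicles and 13.29 to 13.38 in leaves. The 5 measured of 9 tapetum and anther markers averaged 8.25 to 11.34 in IL50-7 panicles and 9.52 to 11.47 in KMR3 panicles, against at most 4.04 in any leaf. In tissue RNA fewer cells of a type and less RNA per cell cannot be told apart.

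The line labels of 2 panicle arrays went against the flag leaves. At 22 probe sets every leaf array of one line was above background and every leaf array of the other below it, with at least 3 log2 units between the nearest arrays. Of these, 15 also differed among the panicle arrays, 12 of them on in IL50-7 leaves and 3 on in KMR3 leaves. IL50-7 panicle replicates 1 and 3 each matched the IL50-7 leaves at 14 of the 15, while IL50-7 panicle replicate 2 matched them at 1 and the KMR3 leaves at 14. KMR3 panicle replicates 1 and 2 matched the KMR3 leaves at 14 and 13, while KMR3 panicle replicate 3 matched them at 1 and the IL50-7 leaves at 14. The probe set for LOC9272184 shows the pattern, at 7.75, 0.73 and 7.89 in IL50-7 panicle replicates 1, 2 and 3 and at 2.80, 0.26 and 8.00 in KMR3 panicle replicates 1, 2 and 3. Its leaf values were 7.31 to 8.01 in IL50-7 and at most 1.86 in KMR3. Of the 15 probe sets 7 have 1 listed gene, and 6 of those 7 lie on chromosome 12. IL50-7 replicate 2 and KMR3 replicate 3 are called the pair in doubt below. Counts of calls are given with the labels as deposited and without the pair, while some genes are given for a single comparison.

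**Figure D1:**
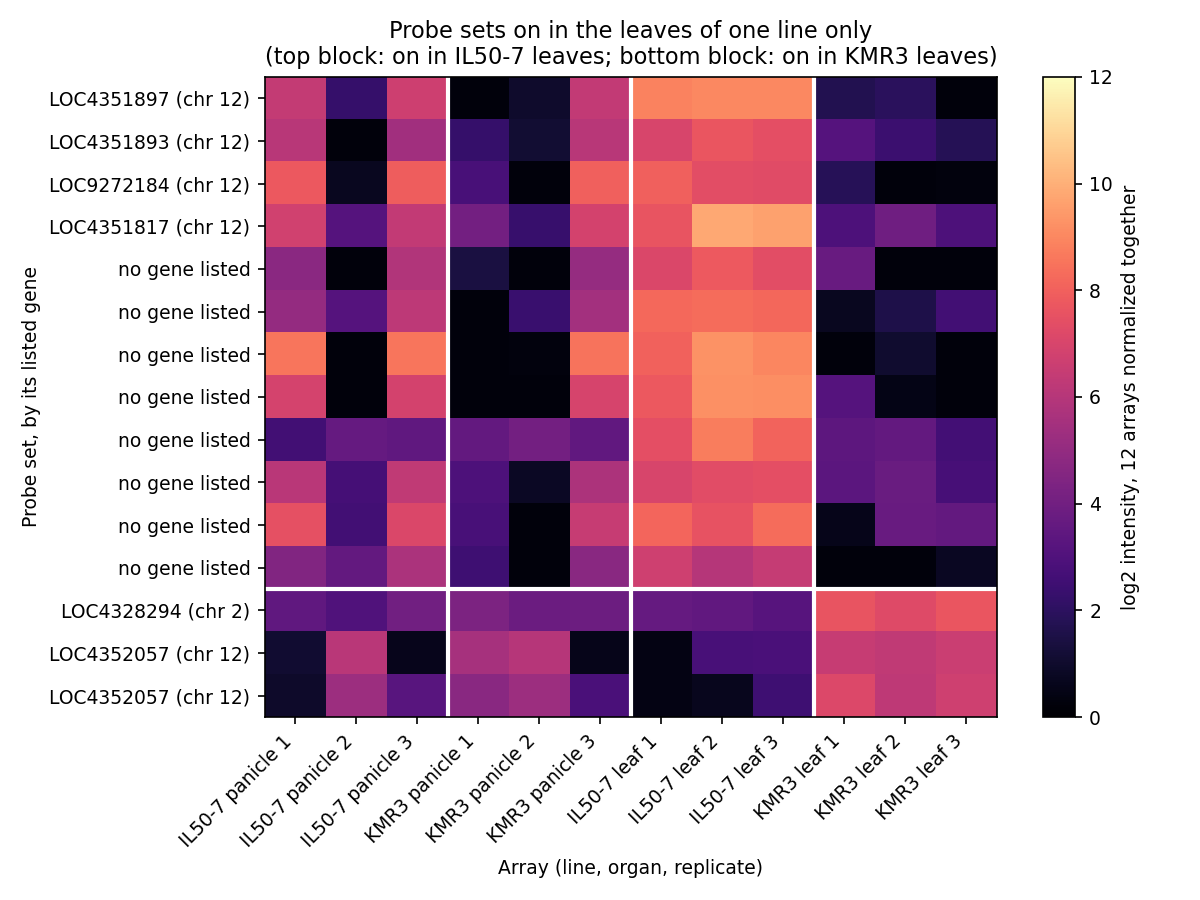
Log2 intensity (colour) of the 15 probe sets that are on in the leaves of one line only and differ among panicles, by array, with panicle arrays to the left of leaf arrays and IL50-7 to the left of KMR3 in each organ. IL50-7 panicle 2 matches the KMR3 leaves at 14 of the 15, and KMR3 panicle 3 matches the IL50-7 leaves at 14.

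The arrays of one line did not consistently resemble each other more than they resembled those of the other line. Across the 34316 tested probe sets, which are not independent of each other, IL50-7 panicles correlated among themselves at r = 0.902 to 0.938 and KMR3 panicles at 0.910 to 0.960. The highest correlations joined the lines, at 0.967 between IL50-7 replicate 1 and KMR3 replicate 3, and 0.966 between IL50-7 replicate 2 and KMR3 replicate 2. The first principal component held 47.0% of the variance and set IL50-7 replicate 1 and KMR3 replicate 3 (112 and 121) apart from the other 4 arrays (-70.2 to -48.5). The second, with 21.9%, set IL50-7 replicate 3 (116) apart. Without the pair in doubt the IL50-7 arrays left are replicates 1 and 3, each set apart on 1 of these components. Line and these array states cannot be told apart in that comparison. IL50-7 replicates 1 and 3 correlated with each other at 0.902, and KMR3 replicates 1 and 2 at 0.960. With KMR3 replicates 1 and 2, IL50-7 replicate 1 correlated at 0.912 and 0.914, and IL50-7 replicate 3 at 0.925 and 0.936. The 2 IL50-7 arrays left were thus less alike than each was to either KMR3 array left. No 2 arrays held identical values.

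**Figure D2:**
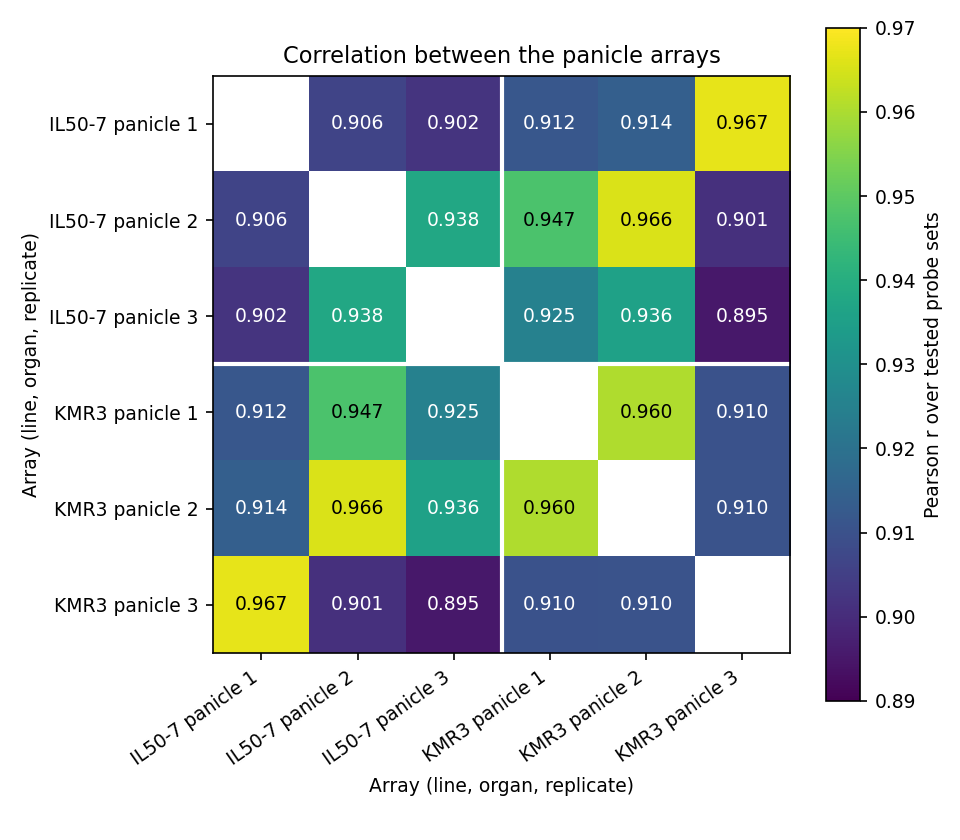
Pearson correlation across tested probe sets for each pair of panicle arrays, IL50-7 arrays above and to the left of KMR3 arrays. The brightest cell, 0.967, joins IL50-7 panicle 1 with KMR3 panicle 3, and the next, 0.966, joins IL50-7 panicle 2 with KMR3 panicle 2.

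RNA quality controls differed among the panicle arrays. The ratio of the 3′ to the 5′ probe set of the GAPDH transcript was 8.72, 18.7 and 7.68 in IL50-7 panicle replicates 1, 2 and 3 and 23.3, 16.0 and 17.6 in KMR3 panicle replicates 1, 2 and 3. For actin the ratio was 6.23, 12.7 and 4.95 in the IL50-7 panicles and 13.4, 11.7 and 9.50 in the KMR3 panicles. IL50-7 replicates 1 and 3 had the lowest ratios of the 6, while the lines overlapped through IL50-7 replicate 2, whose ratios lay within the KMR3 range. KMR3 replicate 3 stayed within the range of the other KMR3 panicles for GAPDH and had the lowest actin ratio of the 3. Without the pair in doubt the ratios of the lines did not overlap. For GAPDH they were then 8.72 and 7.68 in IL50-7 against 23.3 and 16.0 in KMR3. For actin they were 6.23 and 4.95 against 13.4 and 11.7. In the results without the pair, line and this difference in RNA quality cannot be told apart, and its part in any result below was not tested.

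With the labels as deposited, no probe set passed. limma called 0 of 34316 probe sets at an adjusted p under 0.05 (0% called), the smallest adjusted p was 1.0, and 1066 (3.11%) had an unadjusted p under 0.05. The fit of all 12 arrays also called 0, with 1128 (3.29%) at an unadjusted p under 0.05. The values of the lines did not overlap at 3150 probe sets (9.18%), of which 1736 (5.06%) were higher in IL50-7. The median log2 difference, IL50-7 minus KMR3, was -0.0051 over all tested probe sets, and the median absolute difference was 0.22.

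None of the 10 genes with the smallest unadjusted p passed. Ranking by p favours small spreads and lines that do not overlap, so the separation described for them is in part a product of the choice. Glup3, the vacuolar processing enzyme VPE1, which in the seed cleaves storage protein precursors, had log2 intensities of 9.37, 9.11 and 9.70 in the IL50-7 panicles and 8.19, 8.35 and 8.57 in the KMR3 panicles. Every IL50-7 array was above every KMR3 array, at a log2 difference of 1.02 ± 0.21 (SE), or 2.03-fold (limma, unadjusted p = 0.0022, adjusted p = 1.0). Its other 2 tested probe sets had the opposite sign, so the difference rests on 1 probe set of 3. Without the pair in doubt the log2 difference of Glup3 was 1.26 ± 0.22 (SE). LOC4327927, for which the tables used here give no function, stood first in the order of p. It had 10.06, 9.66 and 10.12 in the IL50-7 panicles and 8.69, 8.90 and 9.0 in the KMR3 panicles. The lines again did not overlap (log2 difference 1.08 ± 0.18 SE, limma adjusted p = 1.0). Without the pair the difference was 1.30 ± 0.19 (SE). LOC4328390 on chromosome 2 had 8.55, 9.03 and 9.26 in IL50-7 and 7.38, 7.91 and 7.88 in KMR3, a 2.34-fold difference with no overlap, and 1 of its other 3 probe sets shared the sign.

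Among the other 7, LOC4326400, LOC4340457, LOC4348192 and LOC4339723 were 1.79-fold to 2.03-fold higher in IL50-7, and LOC4331454 was 2.2-fold lower. The other probe set of LOC4326400 had the opposite sign. LOC4348511 and LOC4326705 were below background on every IL50-7 array and above it on every KMR3 array, a difference of at least 1.73-fold for the one and at least 1.91-fold for the other. These bounds set the bright line's mean against the background. In the leaves the values of the lines overlapped for LOC4327927, at 9.87 to 10.48 in IL50-7 and 9.80 to 10.91 in KMR3, and for Glup3, at 8.43 to 9.25 in IL50-7 and 9.0 to 9.81 in KMR3.

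Without the pair in doubt, 2 IL50-7 and 2 KMR3 panicles remained, and 24 named genes, 12 higher and 12 lower in IL50-7, differed by 4.28-fold or more. Of the 24 named genes, 7 were called with these 4 arrays, and the others were not called there and were filled from the fit with leaf arrays. On chromosome 2 lie 14 of the 24, and on chromosome 12 lie 4. Because the pair was chosen from its values, these calls describe 4 arrays and are not an independent test. limma called 10 of the same 34316 probe sets (0.0291%), 2 higher in IL50-7 (0.00583%) and 8 lower (0.0233%), and 2639 (7.69%) had an unadjusted p under 0.05. The lines did not overlap at 13739 probe sets (40%). When the 6 leaf arrays shared the estimate of the spread, 125 of 34316 were called (0.364%), 51 higher (0.149%) and 74 lower (0.216%), and 2783 (8.11%) had an unadjusted p under 0.05. The calls of both fits had 5 probe sets in common. Of the 125, 120 were also tested with panicle arrays alone, and all 120 had the same sign and an unadjusted p under 0.05 there. Both fits take the line difference from the same 4 panicle arrays, so this overlap is not an independent check.

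The 8 called probe sets with a listed gene belong to 7 genes, all on chromosome 2. HSP18.6, a small heat shock protein of the kind that keeps unfolding proteins from aggregating, had log2 intensities of 7.85, 13.57 and 7.90 in IL50-7 panicle replicates 1, 2 and 3 and 13.56, 13.62 and 7.44 in KMR3 panicle replicates 1, 2 and 3. The arrays formed a low and a high group with no value between 7.90 and 13.56, and each array of the pair in doubt lay in the group of the other line. HSP18.6 was 52.5-fold lower in IL50-7 without the pair (log2 difference -5.72 ± 0.15 SE, limma adjusted p = 0.0242), and its other 2 probe sets were lower as well. With the labels as deposited its log2 difference was -1.77 ± 2.21 (SE, limma adjusted p = 1.0).

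LOC9270838 was at the floor of log2 0.16 on IL50-7 panicle replicates 1 and 3 and at 9.88 on replicate 2, against 9.51 and 9.46 on KMR3 replicates 1 and 2 and the floor on replicate 3. LOC4330799 had 2.22, 10.34 and 1.63 in the IL50-7 panicles, against 10.07, 10.34 and 3.55 in the KMR3 panicles. LOC4330422 had 2.63, 11.23 and 3.07 in the IL50-7 panicles, against 10.88, 11.06 and 2.97 in the KMR3 panicles. These 3 genes were below background wherever they were low. Without the pair LOC9270838 was at least 45.6-fold lower in IL50-7 (limma adjusted p = 0.0242). LOC4330799 was lower by at least 75.1-fold (limma adjusted p = 0.0307), and LOC4330422 by at least 127-fold (limma adjusted p = 0.0242). LOC4330362 was 68.0-fold lower (-6.09 ± 0.26 in log2, SE, limma adjusted p = 0.0307) and LOC4330272 was 18.5-fold lower (-4.21 ± 0.19, limma adjusted p = 0.0347). Both stayed above background on every panicle array. With the labels as deposited the log2 differences were -2.97 ± 3.56 (LOC9270838), -3.25 ± 2.84 (LOC4330799) and -2.66 ± 3.06 (LOC4330422, all SE). Those of LOC4330362 and LOC4330272 were then -2.32 ± 2.12 and -1.56 ± 1.49 (SE).

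LOC4329826 was the called gene that was higher in IL50-7. It had 9.18, 0.79 and 9.62 in IL50-7 panicle replicates 1, 2 and 3 and 0.59, 0.16 and 8.65 in KMR3 panicle replicates 1, 2 and 3. Without the pair it was at least 43.0-fold higher (limma adjusted p = 0.0307). With the labels as deposited its log2 difference was 3.39 ± 3.16 (SE). In the flag leaves it was on in both lines, at 9.25 to 10.12 in IL50-7 and 9.04 to 9.98 in KMR3, and the lines overlapped there. The difference between organs in the effect of the line did not pass for this gene with all 12 labels as deposited (limma interaction term over all probe sets), and it was not tested without the pair. The tables used here give no function for the 6 called genes that have only a LOC number.

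The remaining 17 named genes came from the fit with the leaf arrays, in the order of p. The 11 that were higher in IL50-7 were LOC4324580, LOC4351993, LOC4351897, LOC4334035, LOC4329781, LOC9266311, LOC4330694, LOC4329821, LOC4348591, LOC4352173 and LOC4331694. LOC4324580 on chromosome 1 was 25.1-fold higher, with 10.14, 5.01 and 10.13 in the IL50-7 panicles and 5.82, 5.15 and 9.76 in the KMR3 panicles (limma adjusted p = 0.0034 with leaf arrays). LOC4351897 on chromosome 12 and LOC4329821 on chromosome 2 were below background in KMR3 replicates 1 and 2 and were higher in IL50-7 by at least 7.07-fold (LOC4351897) and at least 34.8-fold (LOC4329821). The other 8 were 4.32-fold to 7.74-fold higher, and limma adjusted p-values of the 11 ran from 0.0034 to 0.0176 with leaf arrays and from 0.0675 to 0.265 without them. For 4 of the 11 every other tested probe set had the opposite sign, namely the other 2 of LOC4330694 and the other 1 each of LOC4351993, LOC4329821 and LOC4352173.

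Lower in IL50-7 were LOC4350530, LOC4337261, LOC4329844, LOC4330408, CLPC2 and LOC4330310. Their limma adjusted p-values ran from 0.0034 to 0.0093 with leaf arrays and from 0.102 to 0.239 without them. CLPC2, a chaperone of the chloroplast Clp protease that unfolds proteins for degradation, had 8.94, 11.41 and 9.76 in the IL50-7 panicles and 11.53, 11.50 and 9.24 in the KMR3 panicles. It was 4.47-fold lower without the pair (limma adjusted p = 0.00896 with leaf arrays, 0.239 without). In the leaves it was also lower without overlap, at 12.63 to 12.90 in IL50-7 and 13.02 to 13.10 in KMR3. LOC4350530 on chromosome 11 was at least 6.07-fold lower, with 0.16, 6.67 and 0.60 in the IL50-7 panicles and 6.52, 6.63 and 1.28 in the KMR3 panicles.

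The arrays left out lay with the other line at these genes, as the way they were chosen favours. At all 24 named genes KMR3 replicate 3 lay nearer to IL50-7 replicates 1 and 3, and IL50-7 replicate 2 nearer to KMR3 replicates 1 and 2. Over the 125 probe sets called with leaf arrays the count was 122 (97.6%) for KMR3 replicate 3 and 118 (94.4%) for IL50-7 replicate 2, against 60.6% and 57.6% of all 34316 tested probe sets. Of the 125, 7 are among the 15 probe sets that put the pair in doubt, as is 1 of the 24, so these counts are a description. In the flag leaves, taken by their labels, 13 of the 24 differed in the same direction with no overlap of the lines (54.2%, against 4.95% of all tested probe sets), none in the opposite direction (against 4.21%), and 11 overlapped. Over the 125 there were 58 in the same direction (46.4%) and 6 in the opposite (4.8%). The leaf arrays entered the fit that named 17 of the 24, which shares their spread.

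**Figure D3:**
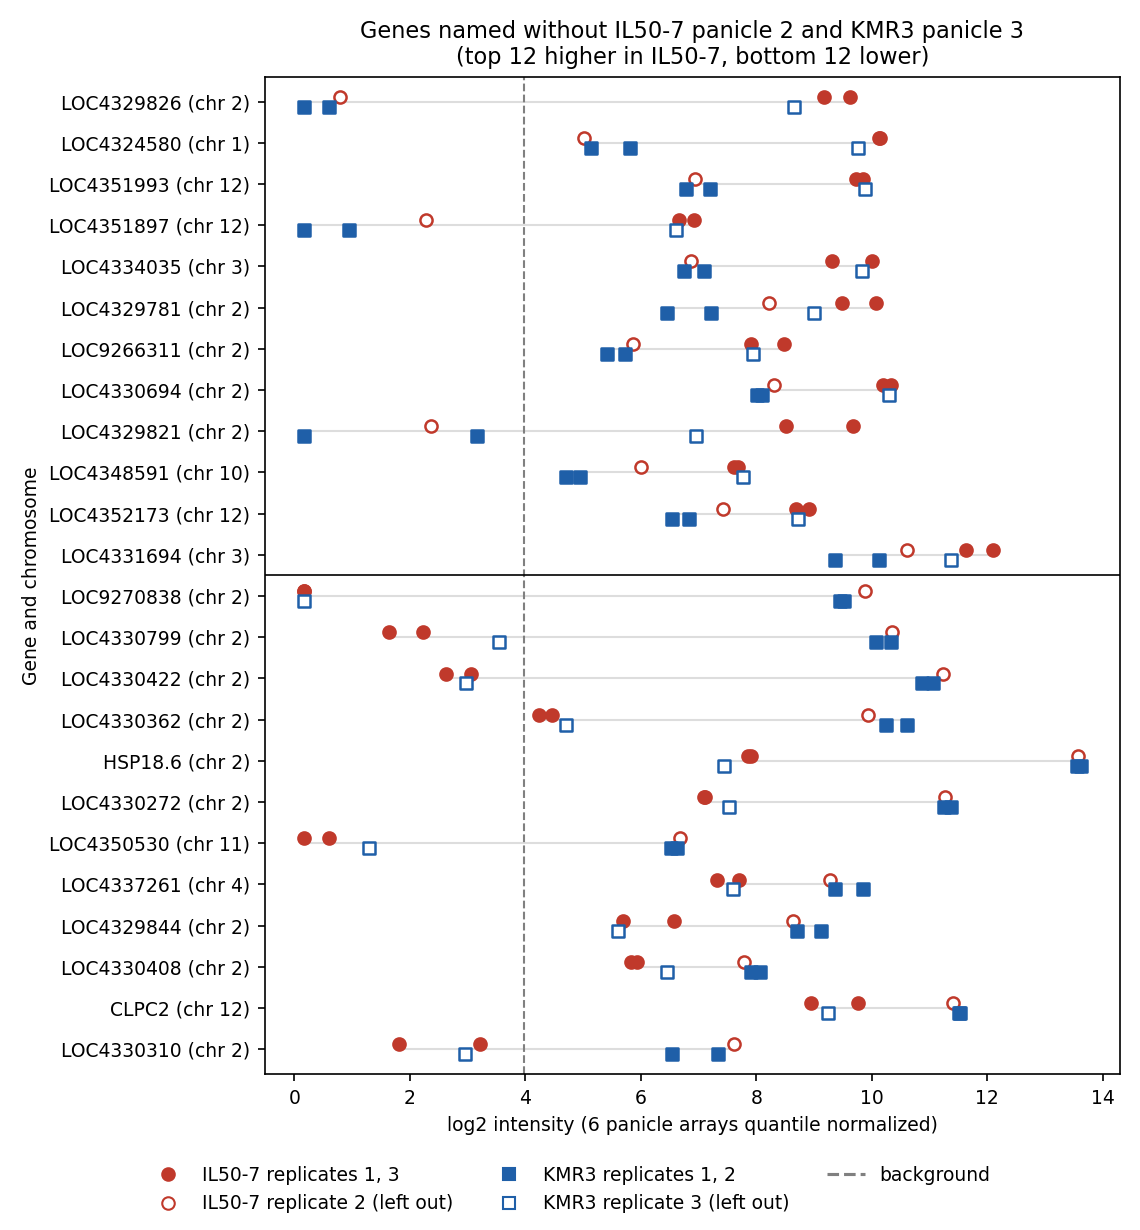
Log2 intensity on each panicle array for the 24 genes named without the pair in doubt, the 12 higher in IL50-7 above the 12 lower, with IL50-7 as circles and KMR3 as squares. Open symbols mark the arrays left out, and at all 24 genes the open circle is nearer to the filled squares and the open square nearer to the filled circles.

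The called genes were unevenly spread over the chromosomes. Of the 77 genes called with leaf arrays, 34 (44.2%) lie on chromosome 2, which holds 12% of the 16491 tested genes, and 10 of the 34 were higher and 24 lower in IL50-7. Chromosome 12 holds 11 (14.3%, against 5.01% of tested genes), 6 higher and 5 lower. Of the probe sets that put the pair in doubt, 6 of the 7 with 1 listed gene lie on chromosome 12. Leaving out the pair favours calls at these probe sets, so the share for chromosome 12 is a description. The share for chromosome 2 is a description as well, since its calls also arose only once the pair was left out. At its 36 called probe sets KMR3 replicate 3 lay nearer to IL50-7 at 36, and IL50-7 replicate 2 nearer to KMR3 at 33. Each other chromosome holds 1 to 6. In the order of tested genes along the chromosome, the calls on chromosome 2 lay between position 673 and position 1788 of 1979, and those on chromosome 12 between position 232 and position 421 of 827. No coordinates are given, since the genome build behind the probe sets is not given in the sources used here.

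The 6 chromosome 2 genes called lower in IL50-7 with the 4 panicle arrays were not low in every IL50-7 leaf. At all 6 called lower genes IL50-7 leaf replicate 1 was the highest of the IL50-7 leaves, replicate 2 the lowest and replicate 3 between them. HSP18.6 had 9.08, 3.66 and 4.86 in the IL50-7 leaves and 9.30, 9.97 and 9.79 in the KMR3 leaves. LOC4330422 had 9.35, 3.5 and 5.93 in the IL50-7 leaves and 10.23, 10.15 and 10.62 in the KMR3 leaves. LOC4330272 had 10.09, 6.96 and 7.48 in the IL50-7 leaves and 6.74, 10.26 and 6.95 in the KMR3 leaves, so it was high in 1 leaf of each line. With the leaf arrays in the fit, the adjusted p of this HSP18.6 probe set was 0.141, that of LOC9270838 0.132, that of LOC4330799 0.103, that of LOC4330422 0.0516 and that of LOC4330272 0.258. The calls that held in both fits included LOC4329826 and LOC4330362 and another probe set of HSP18.6.

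In gene lists for the biology of the panicle, no member passed. The 19 lists held 330 tested genes, of which limma called 0 with the labels as deposited, without the pair, and without the pair with the leaf arrays. With the labels 5 of 330 had an unadjusted p under 0.05, against 3.11% of all tested probe sets. Without the pair 27 did, 11 higher and 16 lower in IL50-7, near the 7.69% of all tested probe sets. The median log2 difference of the 330 was -0.045 with the labels, against -0.0051 over all tested probe sets, and 0.0012 without the pair, against 0.014. Across the 6 panicles the median range of a list gene was 0.84 log2 units, against 1.06 over all tested probe sets.

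How many members were higher or lower depended on the scaling, for the lists as for all probe sets. With quantile normalization and the labels 138 of the 330 were higher in IL50-7, against 36 on the deposited scale and 35 with array medians set equal, while 49.3%, 29.1% and 28.6% of all tested probe sets were. Without the pair the numbers were 166, 100 and 79 of the 330, and 51.5%, 42.1% and 33.7% of all tested probe sets. The median over all probe sets with equal array medians was -0.24 with the labels and -0.22 without the pair. Counts below are from quantile normalization, with those at equal array medians beside them.

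**Figure D4:**
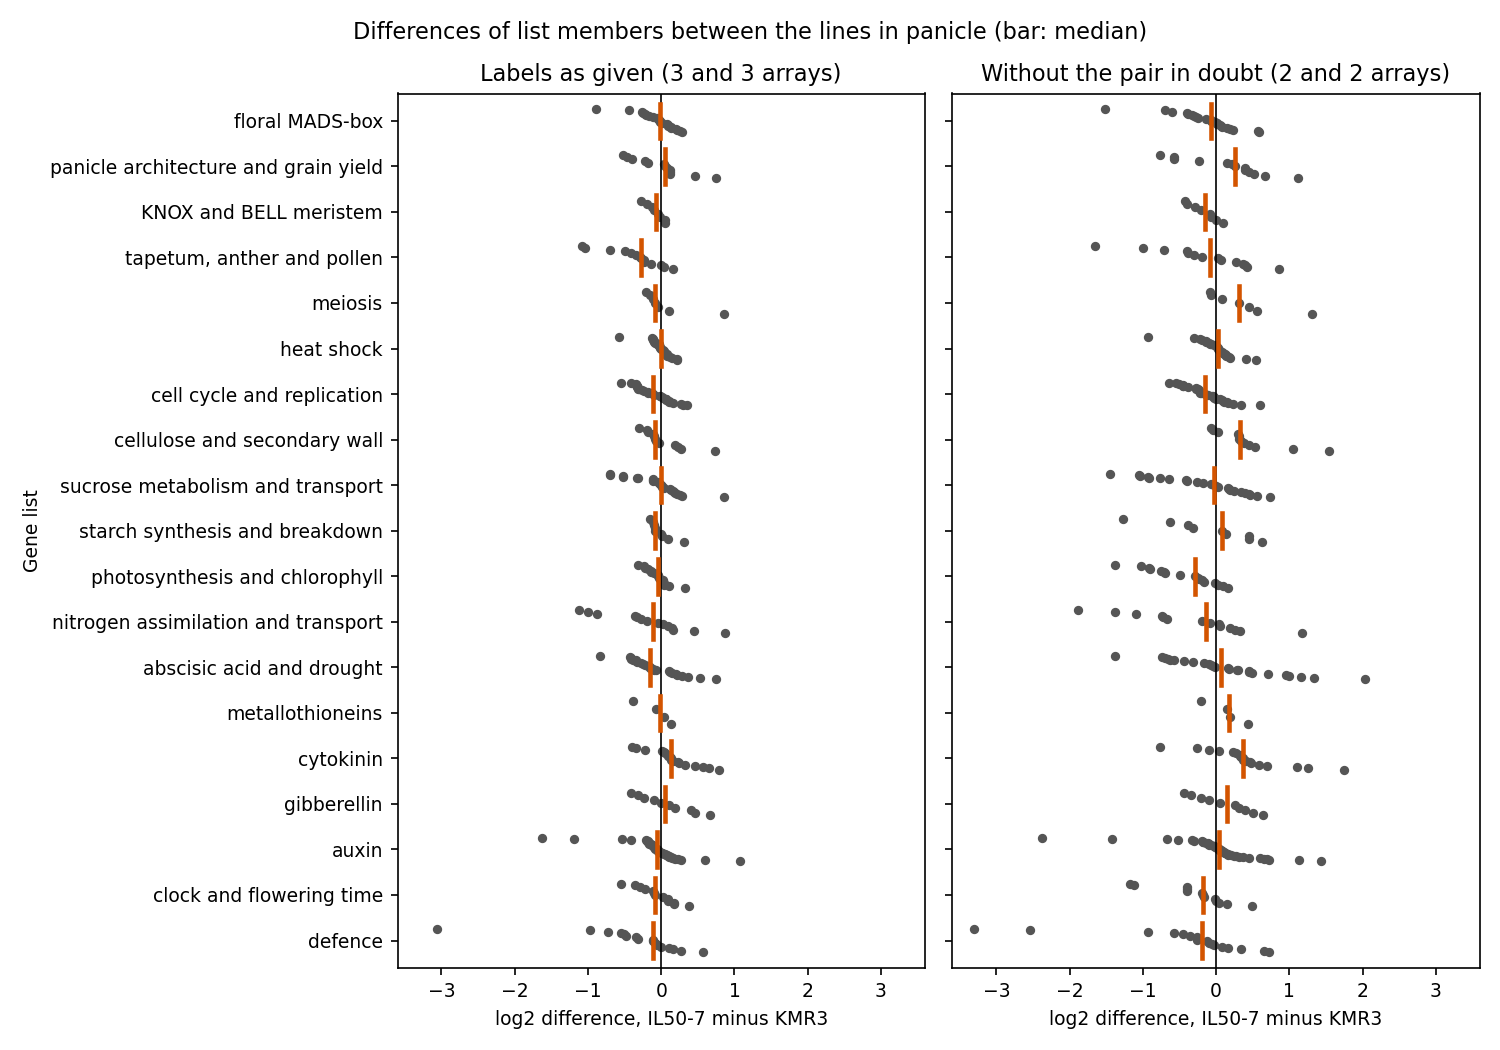
Log2 difference, IL50-7 minus KMR3, of each tested list member (points) and the list median (bars), with the labels as deposited on the left and without the pair in doubt on the right. No point passed limma's adjusted threshold in either panel, and medians lie between -0.28 and 0.36.

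Floral organ genes had no called difference. Of 23 floral MADS-box genes tested, 10 were higher and 13 lower in IL50-7 with the labels as deposited (median -0.023), and none had an unadjusted p under 0.05. With equal array medians 1 was higher and 22 lower, and the list median stood at -0.10 relative to all probe sets. MADS1, an E-class gene of lemma and palea identity, had 11.84, 11.87 and 11.73 in the IL50-7 panicles and 11.81, 11.80 and 11.90 in the KMR3 panicles. MADS16, a B-class gene of lodicule and stamen identity, had 12.91, 12.87 and 12.58 in the IL50-7 panicles and 12.69, 12.94 and 12.88 in the KMR3 panicles. The lines overlapped at both. MADS57, a repressor of a strigolactone receptor gene in tillering, had 3.48, 5.21 and 3.24 in the IL50-7 panicles and 4.80, 4.94 and 2.84 in the KMR3 panicles. Its difference without the pair was the largest of the list (-1.51 ± 0.41 SE, limma unadjusted p = 0.02, adjusted p = 0.53). The 8 KNOX and BELL homeobox genes, regulators of the shoot meristem, had a median difference of -0.071 with the labels and -0.15 without the pair. In both comparisons 2 of the 8 were higher, and with equal array medians 0 of 8.

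Of 13 tested genes for panicle architecture and grain yield, 8 were higher and 5 lower with the labels (median 0.054), and 9 were higher and 4 lower without the pair (median 0.26). With equal array medians 4 were higher with the labels and 7 without the pair. LOG, the cytokinin-activating enzyme that keeps the panicle meristem active, had 9.24, 9.70 and 9.35 in the IL50-7 panicles and 10.20, 9.92 and 9.38 in the KMR3 panicles. The lines overlapped, and without the pair the difference was -0.76 ± 0.20 (SE, limma adjusted p = 0.52). The lines did not overlap at 1 of the 13 members, against 9.18% of all tested probe sets. This was GRF4, a growth-regulating factor that raises grain size, at 6.18, 5.91 and 5.38 in IL50-7 and 6.29, 6.43 and 6.30 in KMR3. SPL14, the regulator of panicle branching, had 4.63, 4.50 and 3.99 in IL50-7 and 4.21, 3.97 and 5.46 in KMR3.

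The cytokinin list had 16 of 19 tested members higher in IL50-7, both with the labels (median 0.13) and without the pair (median 0.36). This count depended on the scaling: with array medians set equal it was 5 of 19 with the labels and 12 of 19 without the pair. Relative to the median of all probe sets the list then stood at 0.076 with the labels and 0.28 without the pair. RR6, a type-A response regulator that damps cytokinin signalling, had 11.24, 9.40 and 10.85 in the IL50-7 panicles and 9.11, 9.48 and 10.95 in the KMR3 panicles. IL50-7 replicate 2 lay with KMR3 replicates 1 and 2, and KMR3 replicate 3 with IL50-7 replicates 1 and 3, and without the pair RR6 differed by 1.75 ± 0.24 (SE, limma adjusted p = 0.23). CKX4, a cytokinin oxidase that degrades the hormone, had 6.68, 5.30 and 6.72 in IL50-7 and 5.51, 5.67 and 6.54 in KMR3. It differed by 1.11 ± 0.25 without the pair (SE, limma adjusted p = 0.45).

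Nitrogen genes gave the largest share of small p-values among the lists without the pair, with 5 of 14 under 0.05, against 7.69% of all tested probe sets. Of these 1 was higher and 4 were lower in IL50-7, none was called, and with the labels 1 of 14 was under 0.05. Of the 14, 6 were higher in both comparisons, and with equal array medians 3. NRT2.3, a high-affinity nitrate transporter, had 7.20, 7.47 and 6.78 in the IL50-7 panicles and 8.52, 8.21 and 7.71 in the KMR3 panicles. The lines did not overlap, NRT2.3 was 1.99-fold lower with the labels (limma unadjusted p = 0.012, adjusted p = 1.0), and the log2 difference was -1.38 ± 0.27 without the pair (SE, limma adjusted p = 0.39). NIA1, a nitrate reductase, had 5.25, 5.98 and 3.96 in IL50-7 and 6.80, 6.18 and 5.59 in KMR3, with overlap (-1.88 ± 0.55 without the pair, limma adjusted p = 0.57). GS1;3, a cytosolic glutamine synthetase, differed the other way without the pair (1.17 ± 0.24, limma adjusted p = 0.42).

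Genes of anther development varied widely among panicles of the same line. The tapetum, anther and pollen list had a median range of 2.04 log2 units over the 6 arrays, and IL50-7 replicate 1 and KMR3 replicate 3 were the highest pair at 10 of its 14 tested members, against 22.2% of all tested probe sets. RAFTIN1, a protein that the tapetum secretes toward developing pollen, had 11.09, 7.97 and 5.10 in the IL50-7 panicles and 6.68, 7.80 and 11.18 in the KMR3 panicles. CYP703A3, a hydroxylase that makes precursors of the pollen wall, had 9.26, 7.89 and 1.38 in the IL50-7 panicles and 4.85, 7.78 and 9.01 in the KMR3 panicles. C6, a tapetal lipid transfer protein, had 13.37, 13.54 and 8.77 in the IL50-7 panicles and 12.24, 13.20 and 13.47 in the KMR3 panicles. IL50-7 replicate 3 was lowest at each of the 3 genes, and the spread within IL50-7 exceeded the difference between the lines. Of the 14 members 12 were lower in IL50-7 with the labels (median -0.28) and 7 without the pair (median -0.084), and none had an unadjusted p under 0.05 in either. At equal array medians 14 were lower with the labels and 10 without the pair.

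Among sugar and starch genes IL50-7 replicate 1 and KMR3 replicate 3 stood at either end. They were the highest pair at 10 and the lowest at 8 of 25 tested sucrose genes, and the highest at 3 and the lowest at 4 of 9 starch genes. Over all tested probe sets they were the highest pair at 22.2% and the lowest at 18.8%. MST5, a monosaccharide transporter of the anther, had 4.54, 8.09 and 8.63 in the IL50-7 panicles and 7.87, 8.21 and 4.53 in the KMR3 panicles. SUT1, a sucrose transporter, had 8.69, 10.09 and 9.93 in the IL50-7 panicles and 10.01, 10.14 and 8.92 in the KMR3 panicles. WAXY, the starch synthase that makes amylose, had 9.54, 12.32 and 12.40 in the IL50-7 panicles and 12.15, 12.34 and 9.75 in the KMR3 panicles. IL50-7 replicate 1 and KMR3 replicate 3 were the lowest 2 arrays at these 3 genes, while more sucrose genes had them highest (10) than lowest (8). The 25 sucrose genes had a median difference of -0.0034 with the labels, 12 higher and 13 lower, and the 9 starch genes one of -0.081, 3 higher and 6 lower. Only 1 sucrose gene and 1 starch gene were higher with equal array medians. CIN1, a cell wall invertase that cleaves sucrose on arrival, was lower without the pair (-1.05 ± 0.34 SE, limma adjusted p = 0.61).

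Photosynthesis genes were lowest on the same pair, IL50-7 replicate 1 and KMR3 replicate 3, at 13 of 17 tested members, against 18.8% of all tested probe sets. CHLH, a subunit of the magnesium chelatase of chlorophyll synthesis, had 8.03, 10.49 and 9.95 in the IL50-7 panicles and 10.29, 10.44 and 8.18 in the KMR3 panicles. PETC, the Rieske protein of the cytochrome complex, had 10.97, 12.26 and 11.92 in the IL50-7 panicles and 12.58, 12.35 and 10.91 in the KMR3 panicles. The lines overlapped at both. Of the 17 members 11 were lower in IL50-7 with the labels (median -0.042) and 14 without the pair (median -0.28). Without the pair IL50-7 replicate 1 stays and KMR3 replicate 3 does not, so line and this array state cannot be told apart. The lower members numbered 16 with equal array medians and the labels, and 17 without the pair. PETC then differed by -1.02 ± 0.35 (SE, limma adjusted p = 0.63).

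**Figure D5:**
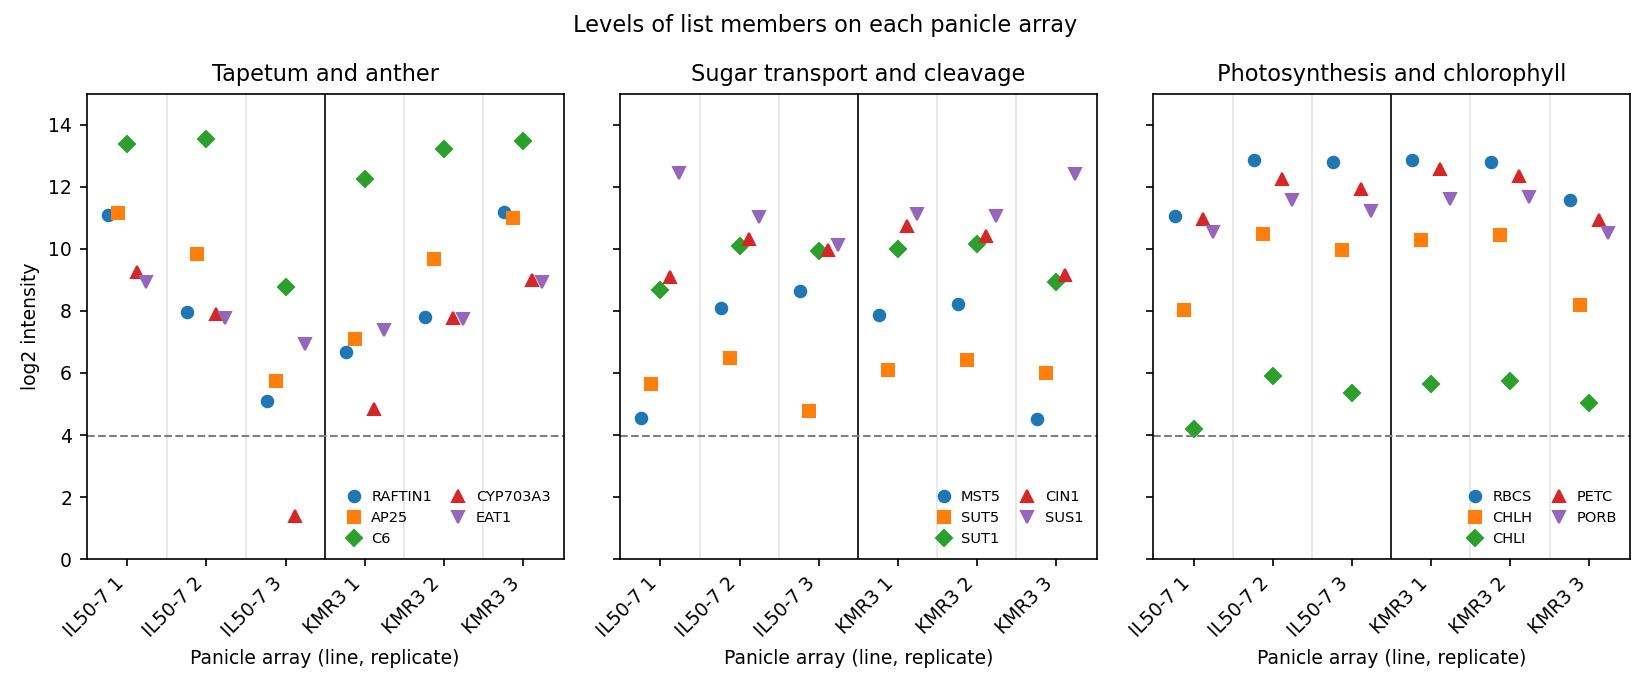
Log2 intensity of 5 members of each of 3 lists on each panicle array, IL50-7 to the left of KMR3, with the dashed line at background. IL50-7 1 and KMR3 3 stand together, high for RAFTIN1 (11.09 and 11.18) and low for MST5 (4.54 and 4.53) and CHLH (8.03 and 8.18).

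Most heat shock genes stood above the leaves in panicles of both lines. Of 26 tested members 23 were above all leaves on every panicle array. The share over all tested probe sets is not given here, so how far this list stands out was not tested. The same held for 15 of 23 floral MADS-box genes and 11 of 14 tapetum, anther and pollen genes, but for 1 of 17 photosynthesis genes. HSP101, the chaperone that resolubilises aggregated proteins, had 13.40, 13.37 and 13.35 in the IL50-7 panicles and 13.37, 13.32 and 13.41 in the KMR3 panicles. The median range of the list over the 6 arrays was 0.24 log2 units. The brightest members stood near the top of the scale, and whether differences are compressed there was not tested. HSP18.6 is not in this list. With the labels 13 were higher and 13 lower in IL50-7 (median -0.0065). With equal array medians 0 were higher and 26 lower (median -0.39, which is -0.15 relative to all probe sets), so the split rests on the scaling. The levels in the list ran from 5.16 to 13.76. HSFA3, a heat shock factor, was lower without the pair (-0.94 ± 0.34 SE, limma adjusted p = 0.64).

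In the abscisic acid and drought list, 9 of 26 were higher and 17 lower with the labels (median -0.16), and 13 were higher and 13 lower without the pair (median 0.073). With equal array medians 3 were higher with the labels and 10 without the pair. RAB16B, a dehydrin that protects cells during water loss, had 8.40, 6.16 and 6.46 in the IL50-7 panicles and 4.93, 5.86 and 8.64 in the KMR3 panicles. IL50-7 replicate 1 and KMR3 replicate 3 were again together at the top (2.03 ± 0.76 SE without the pair, limma adjusted p = 0.65). In the defence list of 18 tested members, 4 were higher and 14 lower with the labels (median -0.11), and with equal array medians 1 and 17. CPS2, a diterpene cyclase of phytoalexin synthesis, had 5.89, 9.77 and 7.82 in the IL50-7 panicles and 10.24, 10.09 and 6.09 in the KMR3 panicles. Without the pair its difference of -3.30 ± 0.68 (SE, limma adjusted p = 0.41) was the lowest of the 330 list members. GLP1, a germin-like protein, had 8.80, 4.69 and 4.23 in the IL50-7 panicles and 10.13, 7.99 and 8.77 in the KMR3 panicles. Its lines overlapped through IL50-7 replicate 1, and its difference of -3.06 with the labels was the lowest of any list member there (limma unadjusted p = 0.049, adjusted p = 1.0).

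Among clock and flowering time genes, 6 of 13 were higher and 7 lower with the labels (median -0.078), and 4 were higher and 9 lower without the pair (median -0.18). In either comparison 1 was higher with equal array medians. PRR1, a pseudo-response regulator of the circadian clock, had 7.78, 8.53 and 7.04 in the IL50-7 panicles and 8.64, 8.54 and 7.81 in the KMR3 panicles, with overlap (-1.18 ± 0.32 SE without the pair, limma adjusted p = 0.54). HD3A, the rice florigen, had 6.67, 9.25 and 9.02 in IL50-7 and 8.90, 9.04 and 6.50 in KMR3. Of 7 meiosis genes 2 were higher with the labels and 5 without the pair, and with equal array medians 1 and 4. DMC1A, the recombinase of meiotic strand exchange, had 5.82, 4.97 and 5.80 in the IL50-7 panicles and 4.29, 4.70 and 5.03 in the KMR3 panicles. Its difference was 0.85 with the labels and 1.31 ± 0.32 without the pair (SE, limma adjusted p = 0.49).

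In the remaining lists the split moved with the scaling as well. With the labels 17 of 46 auxin genes, 6 of 10 gibberellin genes, 12 of 31 cell cycle and replication genes, 4 of 12 cellulose and secondary wall genes and 2 of 4 metallothioneins were higher in IL50-7. Their medians lay between -0.11 and 0.052, and with equal array medians the counts were 4, 3, 3, 3 and 0. Without the pair the counts were 28, 6, 9, 10 and 3, and the medians lay between -0.15 and 0.33, and with equal array medians the counts were 8, 4, 3, 6 and 2. D11, a cytochrome P450 of brassinosteroid synthesis from the architecture list, had 5.44, 4.85 and 4.99 in the IL50-7 panicles and 3.27, 4.93 and 4.83 in the KMR3 panicles, set apart by KMR3 replicate 1. IAA7, an Aux/IAA repressor of auxin responses, had 4.26, 3.98 and 0.30 in the IL50-7 panicles and 4.32, 5.0 and 4.11 in the KMR3 panicles, with IL50-7 replicate 3 far below the others. KAO, an oxidase of gibberellin synthesis, had 7.67, 10.02 and 11.41 in the IL50-7 panicles and 9.85, 10.11 and 7.76 in the KMR3 panicles, with a range of 3.74 log2 units over the 6 arrays and a difference of 0.46 with the labels and -0.44 without the pair. The lines overlapped widely.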

How the data were processed

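RNA was measured on 6 panicle arrays, and 6 flag leaf arrays served for checks. The authors deposited 1 intensity per probe set and array, on a linear scale, for 57381 probe sets. GCOS 1.2 stands without its role in the submitters' processing notes. Not given in the sources used here are the signal algorithm, the scaling and the genome build. Precision is limited by the small number of arrays.

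Log2 intensities of the panicle arrays were quantile normalized, controls included, with a floor at log2 0.16, their 10th percentile. After 187 controls were removed, 34316 of 57194 probe sets had a mean above the 40th percentile and were tested. The background (log2 3.97 in panicles, 4.01 over 12 arrays) is the 95th percentile of 23 controls with no spiked transcript. Where every array of the dimmer line was below it, the fold is a bound. limma 3.58.1 (R 4.3.3) compared the lines, with trended prior variances, and p-values were adjusted after Benjamini-Hochberg at 0.05. Residual degrees of freedom were 4 with the labels as deposited and 2 without the pair in doubt. The method was run on simulated data with independent noise for each probe set. That simulation held no array states, exchanged labels or RNA quality differences, so it does not test the method against these.

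Names came from the platform annotation and RefSeq's gene table: 1 gene is listed for 22436 probe sets, several for 95 and none here for 34663. RefSeq holds each of the 17905 genes. Of 667 list entries 414 matched 1 gene and 35 matched several, which were left out with 5 wrong matches. List members keep the list's names, each by its brightest probe set. The members and lists were chosen with earlier results of these data known. Named genes are the 10 with the smallest p above background with the labels. Without the pair they are called genes, up to 12 each way, filled by p from the fit with leaf arrays. Up to 3 members of each list were named by the largest difference without the pair. MADS1, MADS16, SPL14, SUT1, HSP101 and the further members plotted were chosen after their values were seen. Line state was read on 12 arrays normalized together. Other scalings, filters, floors, priors, weights, left-out arrays and a replicate block were tried. Replicate numbers were not used to pair the lines in the main fits. Deviations of same-numbered panicles from their line means correlated at -0.35, 0.43 and -0.26. Those means follow the deposited labels, with the pair in doubt included, so these correlations cannot settle whether the numbers pair the lines.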

Additional observations from a re-analysis of the deposited data

How the results depend on the processing

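With the labels as deposited, 0 probe sets and 0 list members were called under each scaling, filter, floor, prior and weighting tried, with all 12 arrays together, with each array left out in turn (0 to 0) and with the replicate block (0 called, 795 at an unadjusted p under 0.05). Only leaving out the arrays in doubt changed this, to 10 with panicle arrays alone and 125 with leaf arrays in the fit. The 10 calls without the pair, 2 higher and 8 lower, were unstable. Counts were 317 on the deposited scale (85 higher, 232 lower), 32 with equal array medians (5 and 27), 125 with leaf arrays (51 and 74), 0 with no filter, 3 with the filter at the 60th percentile, 29 with the floor at the 25th percentile, 0 with no trend in the prior variance and 36 with array weights. With 1 more array left out they ran from 0 to 2969: 409 without IL50-7 replicate 1, 2969 without IL50-7 replicate 3, and 0 without KMR3 replicate 1 or KMR3 replicate 2. The lone array of a line is then assumed to vary like the other line, and 1 residual degree of freedom is left. List members called without the pair numbered 2 on the deposited scale and 0 to 47 with 1 more array left out. The cause of these moves was not tested. For the named genes every alternative kept the sign. All 176 repeats with the labels stayed uncalled, and of the repeats without the pair 215 kept their call or lack of it, 55 gained one and 36 lost one. Scaling moved the median difference of all probe sets to -0.23 on the deposited scale and -0.24 with equal medians (labels as deposited). On these scales, chosen after the data were seen, IL50-7 replicate 2 and KMR3 replicate 3 still matched the other line at 12 of 13 and 13 of 14 probe sets.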

Other observations

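OsC3H18, a zinc finger gene on chromosome 2 by its name, had probe sets that were called in opposite directions without the pair in doubt (fit with leaf arrays). The one had log2 intensities of 8.12, 4.03 and 7.90 in the IL50-7 panicles and 4.51, 5.10 and 8.23 in the KMR3 panicles, a difference of 3.15 (limma adjusted p = 0.0268). The other had 7.96, 9.33 and 7.84 in the IL50-7 panicles and 9.36, 9.26 and 7.80 in the KMR3 panicles, a difference of -1.45 (limma adjusted p = 0.0176). Both placed IL50-7 replicate 2 with KMR3 replicates 1 and 2, and KMR3 replicate 3 with IL50-7 replicates 1 and 3, so the level of the gene has no direction here. The pair was chosen after its values were seen.

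Over all 34316 tested probe sets, IL50-7 replicate 1 and KMR3 replicate 3 were together the highest 2 arrays at 7635 (22.2%) and the lowest 2 at 6438 (18.8%). The cellulose and secondary wall list had them highest at 10 of 12 tested members, and the auxin list at 23 of 46. CAD7, named for the alcohol dehydrogenases of lignin synthesis, had 9.04, 6.70 and 6.59 in the IL50-7 panicles and 5.59, 6.96 and 8.97 in the KMR3 panicles.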
